A study of Mus musculus with 41 samples.

Results

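The Schlafen family of the mouse was followed through ribosome footprints and RNA of cells and tissues in which a gene for translation-coupled quality control was targeted. The 6 genes are Slfn1, Slfn2, Slfn3, Slfn5, Slfn8 and Slfn9, matched by symbol in the RNA files and by gene identifier in the footprint files, and they are 6 of 22438 genes with footprint counts and of 55385 genes with RNA counts. They were chosen by their footprint and RNA values across all the conditions reported here, so those values are given as a description, without p-values, and no count of members past a threshold is evidence about them. The data are 41 libraries, 30 of ribosome footprints and 11 of RNA. Ribosome footprints are the stretches of mRNA that a translating ribosome shields from nuclease, and the deposited values are their counts over the coding sequence of each gene.

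Embryos at E8.5 (strain C57BL/6NJ) were Hbs1l-/- or wild type (Hbs1l+/+), with 3 pools of embryos each. Cerebella at P14 (strain C57BL/6J) came from 3 mice with conditional deletion of Hbs1l by Atoh-Cre (Hbs1l cKO, with 1 floxed and 1 null allele) and 3 Atoh-Cre mice that were Hbs1l+/+. This Cre, driven by Atoh1, acts in the granule cell lineage, so other cerebellar cells of the cKO keep a single working allele, while the controls have both. Primary mouse embryonic fibroblasts (MEFs, strain C57BL/6) carried a tamoxifen-inducible Cre (CAG-Cre ER) with conditional alleles of Hbs1l (floxed over null), Pelo or Upf2 (both floxed), or the Cre alone as control, and mutants and controls alike were treated with 4-hydroxytamoxifen. A replicate of MEFs is 1 embryo. The cerebella and MEFs, controls included, carry the C57BL/6J mutation of the tRNA gene n-Tr20. HBS1L and PELO are binding partners that rescue stalled ribosomes, and UPF2 acts in nonsense-mediated decay. There were 3 footprint libraries for each MEF mutant and 3 controls in the sequencing pool of each, and for RNA 3 control, 3 Hbs1l-/-, 2 Pelo-/- and 3 Upf2-/- libraries, the authors having left out 1 more Pelo-/- sample as an outlier.

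Schlafen proteins share an N-terminal core and fall into short forms (Slfn1 and Slfn2), intermediate forms (Slfn3 and Slfn4) and long forms that add a helicase-like part (Slfn5, Slfn8, Slfn9 and Slfn14). The genes are best known from lymphocytes and macrophages, where they bear on growth and quiescence, and many are induced by type I interferon. Several Schlafen proteins bind or cleave tRNA and thereby act on translation.

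All 6 genes lie on chromosome 11 of GRCm38 (coordinates of the GENCODE M21 annotation): Slfn5 at chr11:82951349-82964840 on the plus strand, Slfn9 at chr11:82978390-82991830 and Slfn8 at chr11:83002158-83020810 on the minus strand, and Slfn2 at chr11:83065112-83070678, Slfn1 at chr11:83116849-83122670 and Slfn3 at chr11:83191330-83215154 on the plus strand. The longest coding sequences are 2652 nt for Slfn5, 2730 nt for Slfn8 and Slfn9, 1920 nt for Slfn3, 1134 nt for Slfn2 and 1011 nt for Slfn1, without the stop codon. The promoters of the 4 genes with the most footprints in MEFs are shown because they differ in a motif. Each window holds 250 bases before and 50 after the RefSeq start (GRCm38.p6), read 5′ to 3′ on the strand of the gene, and capitals mark GAAANNGAA, the core of the element that interferon regulatory factors bind, or its reverse complement TTCNNTTTC.
Slfn5 (chr11:82951852-82952151, plus): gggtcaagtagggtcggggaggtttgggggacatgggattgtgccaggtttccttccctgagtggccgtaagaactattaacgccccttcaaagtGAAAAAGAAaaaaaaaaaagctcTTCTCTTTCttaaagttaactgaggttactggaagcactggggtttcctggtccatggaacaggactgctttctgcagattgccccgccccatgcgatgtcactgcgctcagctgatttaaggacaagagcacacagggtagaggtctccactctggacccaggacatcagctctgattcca
Slfn8 (chr11:83020761-83021060, minus): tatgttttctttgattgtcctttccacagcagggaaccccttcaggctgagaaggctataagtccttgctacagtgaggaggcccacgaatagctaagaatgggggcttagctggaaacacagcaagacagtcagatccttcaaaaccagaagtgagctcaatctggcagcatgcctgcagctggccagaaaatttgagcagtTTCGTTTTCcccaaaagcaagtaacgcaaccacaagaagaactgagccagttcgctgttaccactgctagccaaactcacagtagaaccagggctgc
Slfn9 (chr11:82991781-82992080, minus): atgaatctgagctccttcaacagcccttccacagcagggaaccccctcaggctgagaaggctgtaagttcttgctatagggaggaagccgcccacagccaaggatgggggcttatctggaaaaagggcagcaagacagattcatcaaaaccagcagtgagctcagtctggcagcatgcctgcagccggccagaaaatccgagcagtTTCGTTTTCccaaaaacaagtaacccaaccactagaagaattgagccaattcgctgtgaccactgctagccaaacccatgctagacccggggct
Slfn2 (chr11:83064862-83065161, plus): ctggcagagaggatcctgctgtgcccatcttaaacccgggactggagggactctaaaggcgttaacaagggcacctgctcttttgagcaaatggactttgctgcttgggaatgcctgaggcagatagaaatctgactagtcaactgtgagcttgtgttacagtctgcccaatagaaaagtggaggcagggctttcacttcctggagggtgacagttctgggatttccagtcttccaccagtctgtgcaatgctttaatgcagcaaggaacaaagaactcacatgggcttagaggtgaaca
The letters GAAANNGAA, searched on both strands, were in the windows of Slfn5 (first bases at -155 and -132 from the start), Slfn8 (-47) and Slfn9 (-44), and the second start of Slfn8 in RefSeq shares its match. The windows of Slfn1, Slfn2 and Slfn3 had none, which says only that these letters are not in these windows. Of all 32851 promoter windows of the same length, 8.56% held the letters, and of 29 of 40 other interferon-stimulated genes that had a window, 21 did. The letters TTCNNNGAA, a STAT dimer core, were in none of the Schlafen windows against 8.30% of all windows. They were searched on both strands and can overlap the first motif. In Slfn1 the window did not run into the annotated transcript, so its start is uncertain.

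Slfn8 and Slfn9 are close copies, as are Slfn3 and Slfn4, and the counts of these genes are uncertain where the copies share sequence. The Slfn8 and Slfn9 coding sequences were identical at 92.7% of 2730 aligned bases, and the longest run without a difference was 139 bases, shown here in the direction of the genes because footprints from it cannot be told apart.
Slfn8 and Slfn9 (chr11:83003134-83003272 in Slfn8 and chr11:82981231-82981369 in Slfn9, minus, in coding exons): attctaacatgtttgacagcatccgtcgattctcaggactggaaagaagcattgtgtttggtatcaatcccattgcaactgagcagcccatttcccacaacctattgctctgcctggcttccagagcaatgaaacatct
Of 28-base windows, about the length of a footprint, 33.0% in Slfn8 and 39.4% in Slfn9 also occurred in transcripts of another gene, mostly in the pseudogene Slfn10-ps. In Slfn3 42.9% of windows were shared, the highest share of the 6 members and mostly with Slfn4 (92.7% identity over 1785 aligned bases), against 15.2% in Slfn2 and 4.27% in Slfn1. The 19.5% shared in Slfn5 lay all in Slfn5os, a transcript antisense to it, and the strand setting of the authors' counting is not given in the sources used here. In RNA, Slfn5os was listed with at most 1 estimated count in any library.

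Counts per library ran from 2634480 to 7298812 in embryos, 10919139 to 22591768 in cerebella, 5782990 to 25607974 in MEF footprints and 22713643 to 86425762 in MEF RNA. Hbs1l footprints fell in the Hbs1l mutants, with log2 fold changes of -3.60 in embryos, -1.503 in cerebella and -4.15 in MEFs, and Pelo footprints by 3.78 in Pelo-/- MEFs. In the libraries labelled Upf2-/-, Upf2 was instead higher, at 112 to 118 CPM (counts scaled to the library total with edgeR's TMM factors) against 48.8 to 58.2 CPM in controls. The counts cover the whole coding sequence, and the deleted exons of the Upf2 allele are not given in the sources used here. The libraries are therefore called by their label, and every direction drawn from them below stands beside this higher Upf2. The study reports that transcripts annotated as decay targets or with retained introns accumulated in its Upf2-/- MEFs specifically, which was not tested here. Control MEF footprints with the same number in the 3 pools differed by a chi-square per gene of 1.106 to 1.185, against 4.034 to 12.388 between different numbers. They differed by little more than sampling noise, as the same material sequenced again would, and the 3 footprint comparisons do not have independent controls. The 3 RNA comparisons share 3 control libraries. Fibroblast markers summed to between 34580 and 43963 CPM in every MEF footprint library, and granule cell markers to between 3421 and 5769 CPM in cerebella, with no marker at 0. Markers of the E8.5 embryo were lower in Hbs1l-/- embryos (3221 to 8768 CPM) than in wild type (13141 to 17032 CPM), and 2 of 8, the globins Hbb-y and Hba-x, fell, where 0.955% of all tested genes did.

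To see which members are translated where, levels were compared per length of coding sequence (CPM per coding kb). In control MEFs Slfn2 was highest at 6.67 ± 0.83 CPM per kb (SD, n = 3, controls of the Pelo pool), followed by Slfn9 at 3.29 ± 1.16 CPM per kb. Slfn5 (0.37 ± 0.11), Slfn3 (0.20 ± 0.07) and Slfn8 (0.13 ± 0.09 CPM per kb) were low, and Slfn1 had no footprint in any of the 9 control libraries. Slfn5 and Slfn3 lay within 0.25 to 0.44 and 0.13 to 0.28 CPM per kb, so these neighbours overlap, as do Slfn3 and Slfn8 (0.03 to 0.19 CPM per kb). In RNA the same order held at the level of means, with Slfn2 at 6.62 ± 1.02 TPM (transcript abundance scaled by length, kallisto, n = 3), Slfn9 at 1.06 ± 0.28 TPM and Slfn8 at 0.06 ± 0.04 TPM.

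Each tissue had another leading member. In control cerebella it was Slfn5, at 5.45 ± 1.76 CPM per kb (n = 3), and Slfn2 came next at 1.12 ± 0.24 CPM per kb. In wild-type embryos it was Slfn9, at 4.77 ± 2.12 CPM per kb (n = 3), while the next, Slfn5, was at 0.53 ± 0.38 CPM per kb. Summed over the 6 members, the footprints were of like size, with means of 15.4 CPM in wild-type embryos, 18.8 CPM in control cerebella and 17.3 to 18.3 CPM in control MEFs. Of this sum on the per-length scale, Slfn9 made up 80.1% in embryos, Slfn5 69.5% in cerebella and Slfn2 58.7% to 62.6% in MEFs. These tissues are mixtures of cells, where fewer cells of a type and less RNA per cell cannot be told apart.

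The first comparison asks how the members' footprints differ between control MEFs and MEFs that are Hbs1l-/-, Pelo-/- or labelled Upf2-/-. The sum over the 6 members was 204 ± 42.6 CPM (SD, n = 3) in Pelo-/- MEFs against 18.3 ± 4.11 CPM in the controls of that pool, 55.5 ± 7.0 against 17.3 ± 1.48 CPM in Hbs1l-/- MEFs, and 68.0 ± 26.9 against 18.2 ± 2.95 CPM in MEFs labelled Upf2-/-. Of the members that passed edgeR's filter on low counts, 4 of 4 in Hbs1l-/-, 5 of 5 in Pelo-/- and 4 of 4 in MEFs labelled Upf2-/- were called higher at an adjusted p of at most 0.05, where 17.4%, 22.9% and 22.3% of all tested genes were called higher. Since the members were selected on these contrasts, nothing is read from these counts.

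**Figure D1:**
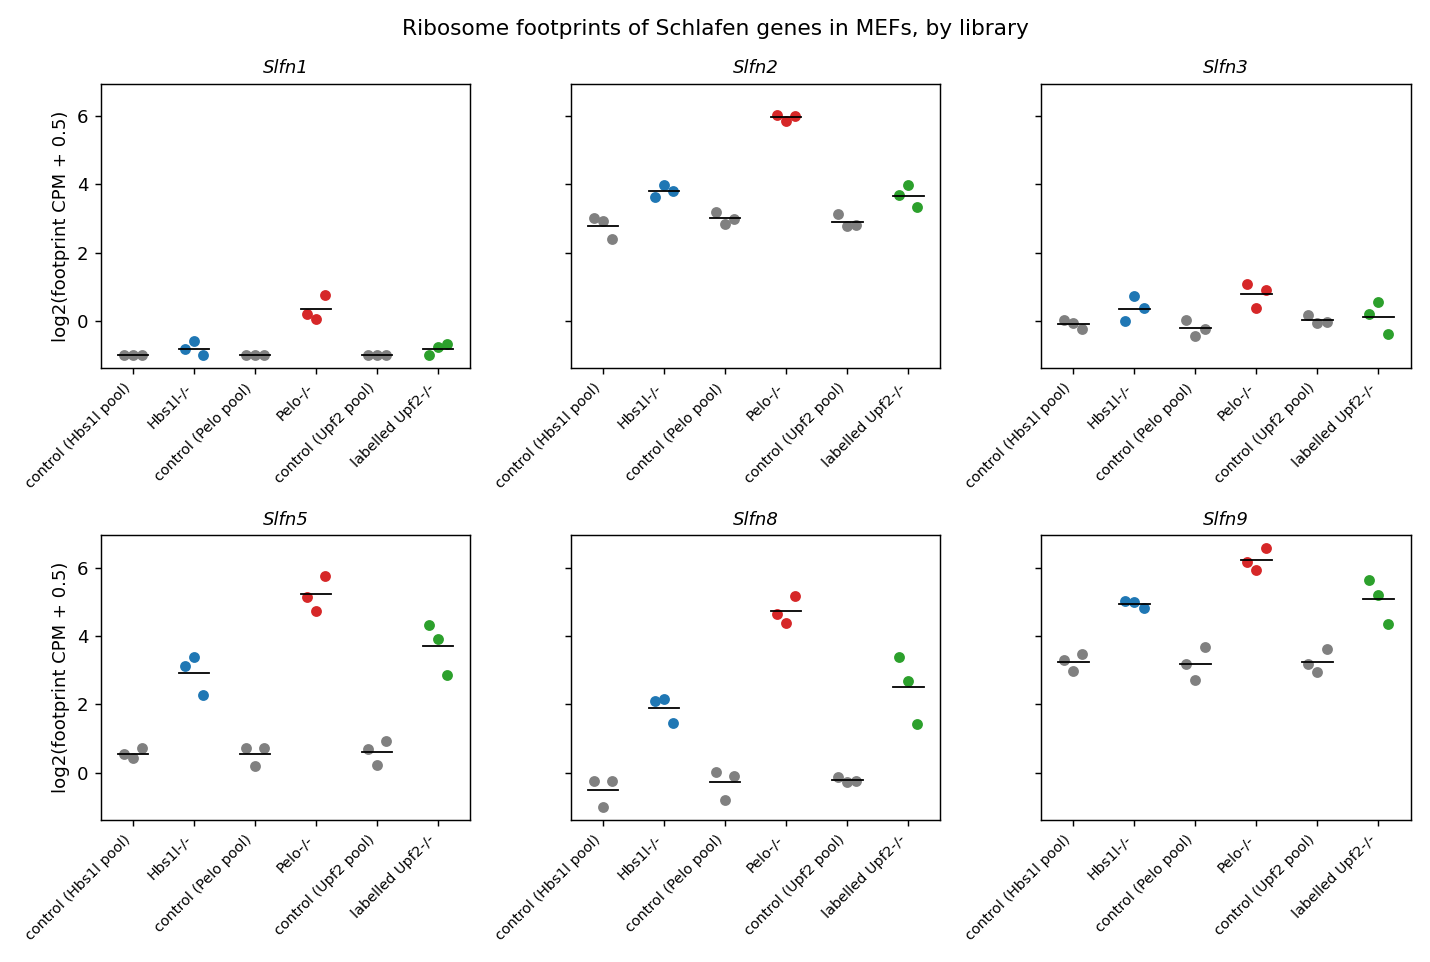
Footprints of each Schlafen gene on the log2(CPM + 0.5) scale in 18 MEF libraries, 1 point per library, with grey for controls of each sequencing pool, colours for mutants and a line at the mean. All Pelo-/- points of Slfn2, Slfn5, Slfn8 and Slfn9 sit above all other libraries, and Slfn1 is at 0 counts in every control.

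Slfn5, a long nuclear Schlafen protein, was nearly silent in control footprints, with 0.65 to 1.41 CPM over the 9 control libraries. It reached 34.7, 26.2 and 53.9 CPM in the Pelo-/- libraries. It reached 8.15, 9.95 and 4.38 CPM in Hbs1l-/- and 19.4, 14.4 and 6.82 CPM in the libraries labelled Upf2-/-. No mutant library overlapped the controls. The changes on the log2 scale were 5.29 (standard error 0.35, n = 3 against 3) in Pelo-/-, 2.88 (0.34) in Hbs1l-/- and 3.66 (0.39) in Upf2-labelled MEFs.

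Slfn8, whose control level was lower still, had between 0 and 0.53 CPM in the controls, which is at most 6 footprints per library. The Pelo-/- libraries had 24.7, 20.4 and 35.6 CPM. The Hbs1l-/- libraries had 3.75, 3.98 and 2.24 CPM, and those labelled Upf2-/- 9.94, 5.97 and 2.18 CPM. The fitted log2 fold changes of 6.26 (standard error 0.38) in Pelo-/-, 3.80 (0.54) in Hbs1l-/- and 3.97 (0.53) in Upf2-labelled MEFs rest on these few control footprints. With Slfn8 and Slfn9 summed to 1 feature, so that a footprint of either assigned to the other does not move the value, the log2 fold changes were 3.46, 1.85 and 2.11. Slfn10-ps was not counted in the footprint files, so the sum does not cover footprints that its shared sequence may have taken.

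Slfn9, the close copy of Slfn8, was by contrast already translated in controls, at 6.04 to 12.3 CPM. In Pelo-/- MEFs it stood at 71.4, 60.6 and 94.0 CPM, a log2 fold change of 3.08 (standard error 0.23). In Hbs1l-/- MEFs it stood at 32.0, 31.7 and 27.5 CPM, a log2 fold change of 1.74 (0.14). The libraries labelled Upf2-/- had 49.7, 36.1 and 20.05 CPM, with a log2 fold change of 1.94 (0.28). No mutant library overlapped its controls, and in each mutant Slfn9 had a smaller log2 fold change than Slfn8 but more footprints.

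Slfn2, a short Schlafen protein known for keeping T cells quiescent and for shielding tRNAs from cleavage, had 4.83 to 8.56 CPM in the controls. Its Pelo-/- libraries lay close together at 65.0, 56.7 and 63.7 CPM, a log2 fold change of 3.03 (standard error 0.11). The Hbs1l-/- libraries had 11.8, 15.2 and 13.3 CPM (log2 fold change 1.02, standard error 0.18). The libraries labelled Upf2-/- had 12.4, 15.2 and 9.55 CPM (0.84, standard error 0.19), where the lowest mutant library, 9.55 CPM, lay just above the highest control of that pool, 8.245 CPM. Slfn2 had the smallest log2 fold change of the 4 abundant members in Hbs1l-/- and Upf2-labelled MEFs, and in Pelo-/- MEFs it differed from Slfn9 (3.08) by less than the standard errors. It kept the highest level per length in Pelo-/- MEFs, at 54.5 ± 3.90 CPM per kb (n = 3).

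Slfn3 and Slfn1, both described from T cells, were rare. Slfn3 had 27, 13 and 36 footprints in Pelo-/- libraries and 6, 3 and 4 in their controls (log2 fold change 1.75, standard error 0.46), and did not pass the filter in the other MEF footprint comparisons. Slfn1 had 11, 9 and 31 footprints in Pelo-/- libraries and none in their controls. Set against a floor of 3 counts per control library, its mean of 0.80 CPM was at least 3.09-fold higher. In Hbs1l-/- and Upf2-labelled MEFs Slfn1 had at most 1 footprint per library. In MEF footprints both genes had their highest mean level in Pelo-/- libraries.

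On average Slfn8 stood below Slfn3 per length in the controls of each pool and above it in every mutant. Among Slfn2, Slfn9, Slfn5 and Slfn8 the order of mean levels per length was the same in control, Pelo-/- and Hbs1l-/- MEFs. In Pelo-/- MEFs it was Slfn2 (54.5), Slfn9 (27.6), Slfn5 (14.4) and Slfn8 (9.86 CPM per kb), and the ranges of Slfn5 and Slfn8, 9.89 to 20.3 and 7.47 to 13.0 CPM per kb, overlapped. In Hbs1l-/- MEFs Slfn2 (11.9) and Slfn9 (11.1 CPM per kb) were level within their spread. On the per-length scale Slfn5 moved from 3.50% of the sum in the controls of the Pelo pool to 13.4% in Pelo-/- MEFs, and Slfn8 from 1.21% to 9.14%. In MEFs labelled Upf2-/- Slfn9 came first on average, at 12.9 ± 5.44 CPM per kb against 10.9 ± 2.47 CPM per kb for Slfn2, a difference within the spread of the libraries.

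The second comparison asks whether the mRNA differed in the same way. RNA came from dishes other than those used for footprints, and no source used here ties an RNA library to a footprint library. The sum over the members was 34.9 ± 9.95 CPM (n = 3) in Hbs1l-/-, 12.5 ± 1.14 CPM (n = 2) in Pelo-/- and 22.2 ± 2.62 CPM (n = 3) in Upf2-labelled RNA, against 17.7 ± 1.48 CPM (n = 3) in the shared controls. At an adjusted p of at most 0.05, 3 of 5 tested members were called higher in Hbs1l-/- RNA, where 12.7% of all genes were, and 1 of 4 was called higher in Upf2-labelled RNA, where 13.2% of all genes were. In Pelo-/- RNA none of 3 tested members was called higher and 1 was called lower, where 15.5% of all genes were called higher and 16.6% lower. These contrasts also chose the members, so the counts are a description.

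**Figure D2:**
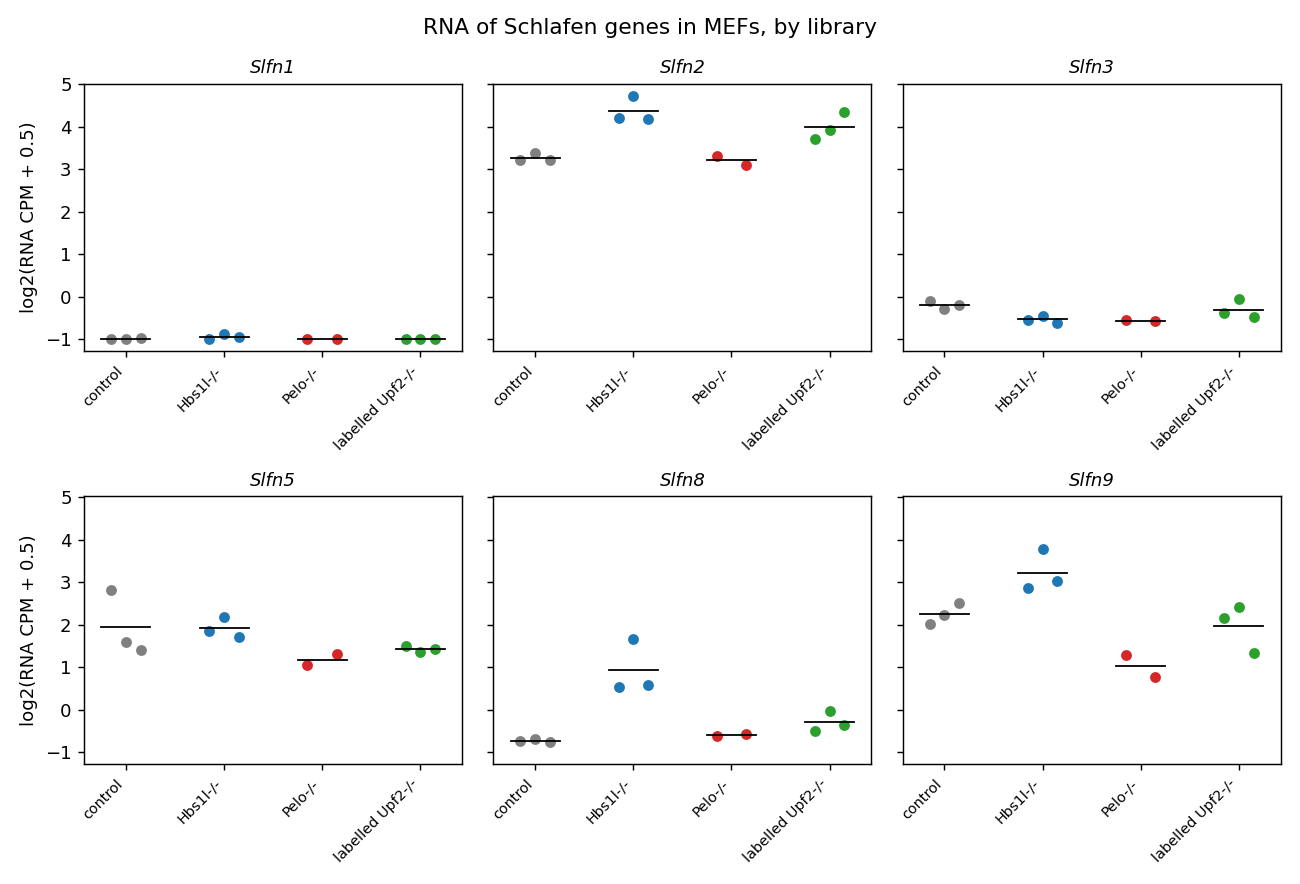
RNA of each Schlafen gene on the log2(CPM + 0.5) scale in 11 MEF libraries, 1 point per library, with a line at the mean of the group. Slfn2, Slfn8 and Slfn9 are higher in all 3 Hbs1l-/- libraries than in the controls, and the 2 Pelo-/- points of Slfn9 and Slfn5 lie below all controls.

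In Hbs1l-/- RNA, Slfn8 had 0.94, 2.69 and 0.98 CPM against 0.09, 0.12 and 0.09 CPM in the shared controls (log2 fold change 3.97, standard error 0.55). Slfn2 had 18.1, 26.1 and 17.6 CPM against 8.77 to 10.004 CPM (log2 fold change 1.18, standard error 0.16). Slfn9 had 6.77, 13.3 and 7.65 CPM against 3.56, 4.16 and 5.20 CPM (1.10, standard error 0.25). In these 3 genes replicate 2 of Hbs1l-/- was the highest library, and none of the groups overlapped. Without that library the log2 fold change of Slfn8 was 3.25, and with Slfn8, Slfn9 and Slfn10-ps summed it was 1.26. Slfn5 did not stand apart in Hbs1l-/- RNA, at 3.09, 4.06 and 2.78 CPM against 6.54, 2.52 and 2.16 CPM in controls (log2 fold change -0.11, standard error 0.39). Control replicate 1 decided this sign, and without it the value was 0.55. Slfn3 was lower in Hbs1l-/- than in control RNA, 0.16 to 0.23 against 0.32 to 0.43 CPM, on 45 estimated counts over the 3 controls.

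In Pelo-/- RNA, Slfn2 was at 9.46 and 8.14 CPM against 8.77 to 10.004 CPM in controls (log2 fold change -0.01, standard error 0.14, n = 2 against 3). Slfn9 was at 1.92 and 1.20 CPM against 3.56 to 5.20 CPM (log2 fold change -1.42, standard error 0.26). Slfn5 was at 1.56 and 1.97 CPM against 2.16 to 6.54 CPM (-0.99, standard error 0.50). For Slfn5 the size of this difference rests on control replicate 1, and without it the log2 fold change was -0.34. Slfn8 had 4 estimated counts in each Pelo-/- library and 2, 3 and 7 in the controls, too few to pass the filter. Scaled to library size these are 0.14 and 0.17 CPM, above the 0.09 to 0.12 CPM of the controls, the opposite order to Slfn5 and Slfn9.

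In Upf2-labelled RNA, Slfn2 was higher at 12.6, 14.8 and 19.8 CPM (log2 fold change 0.81, standard error 0.18). Slfn9 (-0.26, standard error 0.28), Slfn5 (-0.71, standard error 0.37) and Slfn3 (-0.18, standard error 0.38) overlapped their controls. Without control replicate 1 the value of Slfn5 was -0.05. Slfn8 had 7, 30 and 14 estimated counts, or 0.20 to 0.48 CPM, above the 0.09 to 0.12 CPM of the controls, but did not pass the filter.

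**Figure D3:**
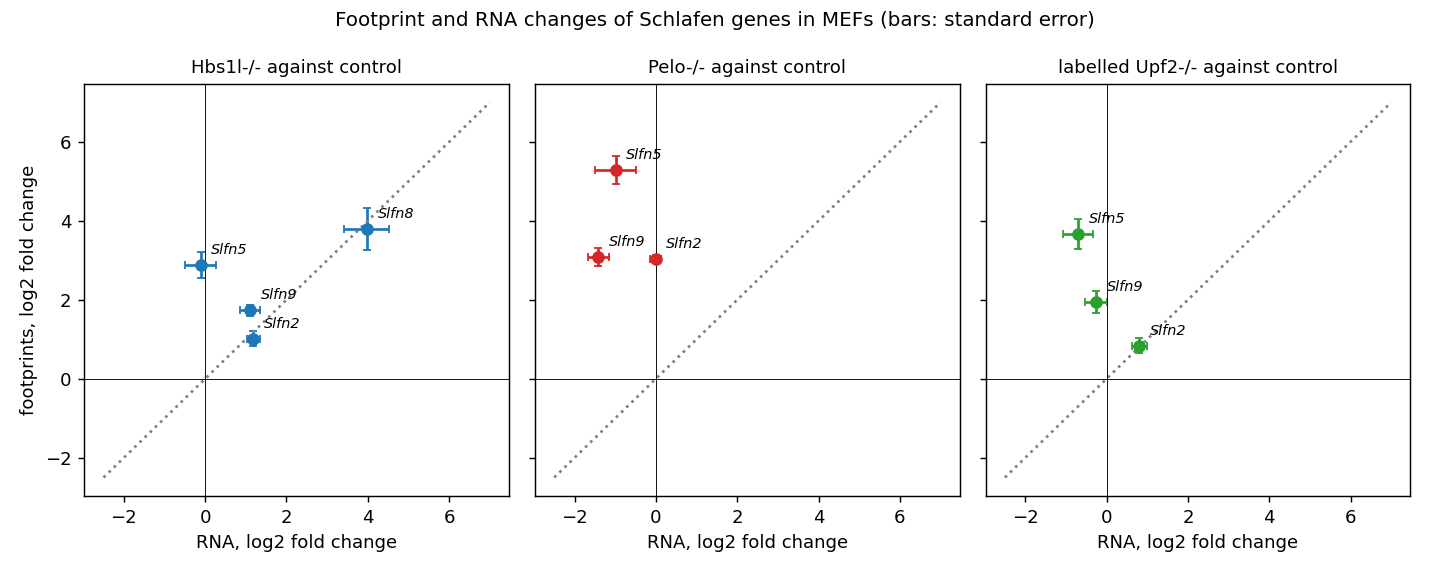
Log2 fold change of footprints (vertical axis) against that of RNA (horizontal axis) for members fitted in both, with standard error bars and a dotted line where both are equal. Slfn2, Slfn8 and Slfn9 lie near the line in Hbs1l-/- MEFs, while Slfn2, Slfn5 and Slfn9 lie far above it in Pelo-/- MEFs, where their footprint changes are 3.03, 5.29 and 3.08.

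Footprints relative to RNA (translation efficiency, TE) put both assays in 1 model, in which a value is the footprint change minus the RNA change on the log2 scale. In Hbs1l-/- MEFs the differences were -0.15 (standard error 0.26) for Slfn2, -0.12 (0.85) for Slfn8 and 0.65 (0.31) for Slfn9, or 1.01 without Hbs1l-/- RNA replicate 2, and 3.01 (0.61) for Slfn5, or 2.36 without RNA control replicate 1. Footprints and RNA of Slfn2 and Slfn8 thus moved by like amounts there, with wide error for Slfn8, whose value turned to 0.60 without that RNA library and to 0.33 without footprint control replicate 3. In Pelo-/- MEFs the differences were 6.22 (0.71) for Slfn5, or 5.62 without RNA control replicate 1, 5.57 (0.94) for Slfn8, 4.51 (0.40) for Slfn9, 3.04 (0.18) for Slfn2 and 2.75 (0.67) for Slfn3. The value of 8.61 (3.38) for Slfn1 rests on groups without counts and is not a measure of size. Slfn8, Slfn3 and Slfn1 did not pass the filter in Pelo-/- RNA and could enter this fit through their Pelo-/- footprints. Slfn8 had 4 estimated counts in each Pelo-/- RNA library and Slfn3 had 5 and 4, so their values rest on few counts. In Upf2-labelled MEFs the differences were 4.35 (0.62) for Slfn5, or 3.69 without RNA control replicate 1, and 2.201 (0.44) for Slfn9, the 2 that passed the threshold, and 2.25 (0.91) for Slfn8, 0.51 (0.63) for Slfn3 and 0.01 (0.27) for Slfn2, which did not. Of the tested members, 0 of 4 in Hbs1l-/-, 5 of 6 in Pelo-/- and 2 of 5 in Upf2-labelled MEFs were called higher, where 0.00761%, 21.9% and 7.6% of all genes were. The members were selected on these values, so nothing is read from these counts. For the count of 0, 2 genes in all were called by edgeR (321 by DESeq2) and 2116 had an unadjusted p below 0.05.

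Slfn5 footprints were thus higher in all 3 mutants without a higher RNA level outside the controls' range. The top of that range is RNA control replicate 1, at 6.54 CPM. The Hbs1l-/- RNA libraries, at 2.78 to 4.06 CPM, lay above the other controls, at 2.52 and 2.16 CPM. Slfn2 and Slfn9 were higher in both assays in Hbs1l-/- MEFs, while in Pelo-/- MEFs their footprints were higher and their RNA overlapped the controls (Slfn2) or lay below them (Slfn9). Whether the 2 kinds of library were in the same state when collected was not tested. The 40 other interferon-stimulated genes were set beside them. This list was chosen with earlier results of these data known. The counts of this and the following lists are to be read against the shares of all tested genes that rose, given above for each mutant and assay, and against those that fell, which were 16.7% in Hbs1l-/-, 21.2% in Pelo-/- and 21.1% in Upf2-labelled footprints, 10.4% in Hbs1l-/- RNA, and 18.6% in Pelo-/- and 10.4% in Upf2-labelled TE. In Pelo-/- footprints 39 of 39 tested members of the list rose, with a median log2 fold change of 5.79 against 0.00 over all genes. In Pelo-/- RNA none of 26 rose and 7 fell (median -0.35 against -0.01). The tested members of this and the following lists differ between fits, and a gene can pass the filter through mutant libraries alone, where it is high. The counts and medians of the lists are therefore a description, and the 39 and the 26 are not the same set.

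The interferon pathway around the Schlafen genes was described by its parts. Of 20 interferon genes, the ligands, none passed the filter in any comparison. The ligand with the most footprints in Pelo-/- MEFs was Ifnb1, with 6 to 20 footprints per library and none in the controls, while Pelo-/- RNA had 1 estimated count of a ligand in all and Hbs1l-/- RNA 1 to 8 per library. In Hbs1l-/- MEF footprints the 20 ligands had at most 1 count per library, and in those labelled Upf2-/- at most 2.

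Of 16 receptors, kinases and transcription factors of the pathway, all tested in the MEF comparisons, 13 rose in Pelo-/- footprints, 7 rose and 1 fell in Hbs1l-/-, and 7 rose and 1 fell in Upf2-labelled MEFs, where 22.9%, 17.4% and 22.3% of all genes rose. Irf7, the factor that amplifies interferon transcription, rose by 5.89 in Pelo-/- footprints (log2 scale, standard error 0.26, adjusted p = 1.91e-07 in edgeR, Benjamini-Hochberg over all genes), by 3.63 in Hbs1l-/- and by 3.58 in Upf2-labelled MEFs. Stat2 and Irf9, parts of the complex that binds interferon response elements, rose by 3.56 each in Pelo-/- footprints. In RNA, 8 of the 16 rose in Hbs1l-/- MEFs, led by Irf7 (log2 fold change 4.03), and 5 in Upf2-labelled MEFs (Irf7, 1.82). In Pelo-/- RNA 2 receptor subunits rose, Ifnar1 (0.46) and Ifngr1 (0.43), and Jak2 fell by 0.84. These 2 of 16 are no larger a share than the 15.5% of all genes that rose in Pelo-/- RNA, against 12.7% in Hbs1l-/- and 13.2% in Upf2-labelled RNA. For TE, 10 of 16 rose and 1 fell in Pelo-/- MEFs, 5 rose and 1 fell in Upf2-labelled MEFs, where 21.9% and 7.6% of all genes rose, and in Hbs1l-/- MEFs none passed in edgeR.

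Of 6 feedback inhibitors, 4 rose in Pelo-/- footprints (22.9% of all genes) and 3 each in Hbs1l-/- (17.4%) and Upf2-labelled MEFs (22.3%). Usp18, which shuts off the interferon receptor, had log2 fold changes of 6.78, 4.44 and 4.93 in Pelo-/-, Hbs1l-/- and Upf2-labelled footprints, and Isg15, a ubiquitin-like modifier, of 6.11, 3.69 and 4.38. In RNA 4 of 6 rose in Hbs1l-/-, 3 in Upf2-labelled and 1 in Pelo-/- MEFs, where 1 fell (Ptpn2, -1.06). The single gene in each direction in Pelo-/- RNA is near the 15.5% and 16.6% of all genes that rose and fell. For TE 5 of 6 rose in Pelo-/-, 2 in Upf2-labelled and none in Hbs1l-/- MEFs.

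The other interferon-stimulated genes also rose in Hbs1l-/- footprints (33 of 34 tested, 1 fell, median 2.90) and in Upf2-labelled footprints (37 of 38, median 3.79). Among genes with a mean of at least 5 CPM the leading ones were Phf11d in both (log2 fold changes 5.40 and 6.00), and Zbp1 (7.13) and Iigp1 (7.06), an immunity-related GTPase, in Pelo-/- MEFs. In RNA 35 of 39 rose in Hbs1l-/- MEFs (median 3.20), led by Oas1a (4.53), and 20 of 37 in Upf2-labelled MEFs (median 1.22), led by Ifit1 (1.99). The 2 largest decreases in Pelo-/- RNA among such genes were those of Eif2ak2 (-1.28) and Ifih1 (-1.06), sensors of double-stranded RNA. For TE 40 of 40 rose in Pelo-/- and 31 of 39 in Upf2-labelled MEFs, and none of 39 in Hbs1l-/- MEFs, where the list's median was 0.14 against -0.02 over all genes.

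Since some Schlafen proteins act on tRNA, a list of genes of tRNA splicing, processing and cleavage was set beside them. The list also holds Rnh1, a ribonuclease inhibitor, and Dnase2a, a DNase. Dnase2a was the gene that rose in Upf2-labelled footprints and in Hbs1l-/- RNA. Of 11 tested in MEF footprints, 2 rose and 1 fell in Hbs1l-/-, 2 rose and 1 fell in Pelo-/-, and 1 rose and 1 fell in Upf2-labelled MEFs. These counts are near or below the 17.4%, 22.9% and 22.3% of all genes that rose there. Elac2, which trims the 3′ end of tRNA precursors, rose by 0.25 in Hbs1l-/- and by 0.24 in Pelo-/- MEFs on the log2 scale. In RNA 1 of 13 rose in Hbs1l-/-, 2 rose and 1 fell in Pelo-/-, and 3 rose in Upf2-labelled MEFs. For TE 4 of 14 rose in Pelo-/- (21.9% of all genes) and 1 of 13 fell in Upf2-labelled MEFs, and none passed in Hbs1l-/- MEFs. The counts are no result about these genes. The Schlafen log2 fold changes in Pelo-/- footprints ran from 1.75 to 6.26.

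The other Schlafen genes had few counts. Slfn4, Slfn14 and Slfnl1 did not pass the filter in footprints, and the pseudogene Slfn10-ps and Slfn5os were not counted there. Slfn14, a long form, had 3, 6 and 2 footprints in Hbs1l-/- embryos and none in the wild-type libraries. In RNA Slfn10-ps passed alone. It had 0.68, 1.47 and 1.01 CPM in Hbs1l-/- MEFs against 0.33, 0.64 and 0.60 CPM in controls, so these groups did not overlap. Its log2 fold changes were 1.01 in Hbs1l-/-, -0.73 in Pelo-/- and 0.71 in Upf2-labelled MEFs, none past the threshold. Slfn4 had 1 estimated count in each Hbs1l-/- RNA library and none in controls.

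Markers of macrophages, which express Schlafen genes, were set beside these results. Their summed footprints were 554 to 791 CPM in Pelo-/- MEFs and 149 to 200 CPM in the controls, with 12 of 12 tested markers up and none of 13 at 0. They were 271 to 358 CPM in Hbs1l-/- (10 of 12 up) and 197 to 243 CPM in Upf2-labelled MEFs (4 of 11 up), where 22.9%, 17.4% and 22.3% of all genes rose in these 3 mutants. Adgre1, Csf1r and Mrc1 led the list in Hbs1l-/- footprints (log2 fold changes 1.22, 1.19 and 1.75). In RNA the sums were 206 to 279 CPM in Hbs1l-/-, 136 to 201 CPM in Pelo-/-, 92.7 to 159 CPM in Upf2-labelled and 105 to 155 CPM in control MEFs, with 11, 2 and 0 of 13 up in the mutants, where 12.7%, 15.5% and 13.2% of all genes rose, so that the 2 in Pelo-/- RNA are at the level of all genes. Lymphocyte markers summed to 16.2 to 23.0 CPM in Pelo-/- footprints against 3.76 to 5.54 CPM in controls, with 2 of 2 tested markers up, among them Ptprc, the leukocyte antigen CD45 (log2 fold change 2.07). Of the 10 lymphocyte markers 4 were at 0 in all Pelo-/- footprint libraries, Cd3e, Cd3d and Cd8a among them, and 6 in the controls of that pool. Endothelial markers were lower, 25.5 to 33.3 CPM in Pelo-/- footprints against 74.0 to 84.6 CPM, with 1 of 4 up and 2 down. Of 10 fibroblast markers 8 rose and 1 fell in Pelo-/- footprints, 9 rose and 1 fell in Hbs1l-/-, and 8 rose and 2 fell in Upf2-labelled MEFs. The part of these cell types in the Schlafen values was not tested.

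To see whether the whole locus moved, the 16 nearest annotated genes outside the cluster (8 on each side, RefSeq) were set beside the members. On the side of Slfn5, 5 of them were tested in footprints. In Pelo-/- MEFs 3 of these rose (Nle1, Rffl and Lig3), where 22.9% of all genes rose, and the log2 fold changes ran from 0.04 (Zfp830) to 0.83 (Nle1). In Hbs1l-/- MEFs they ran from -0.04 to 0.56 and in Upf2-labelled MEFs from -0.17 to 0.50. The tested members, chosen for their values, lay above these ranges in the 3 mutants. These ranges leave out the flanking genes on the side of Slfn3, which are not shown in footprints, so they do not describe the whole locus. In RNA 10 neighbours were tested, with 2 up and 1 down in Hbs1l-/-, and 1 up in each of the other mutants.

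**Figure D4:**
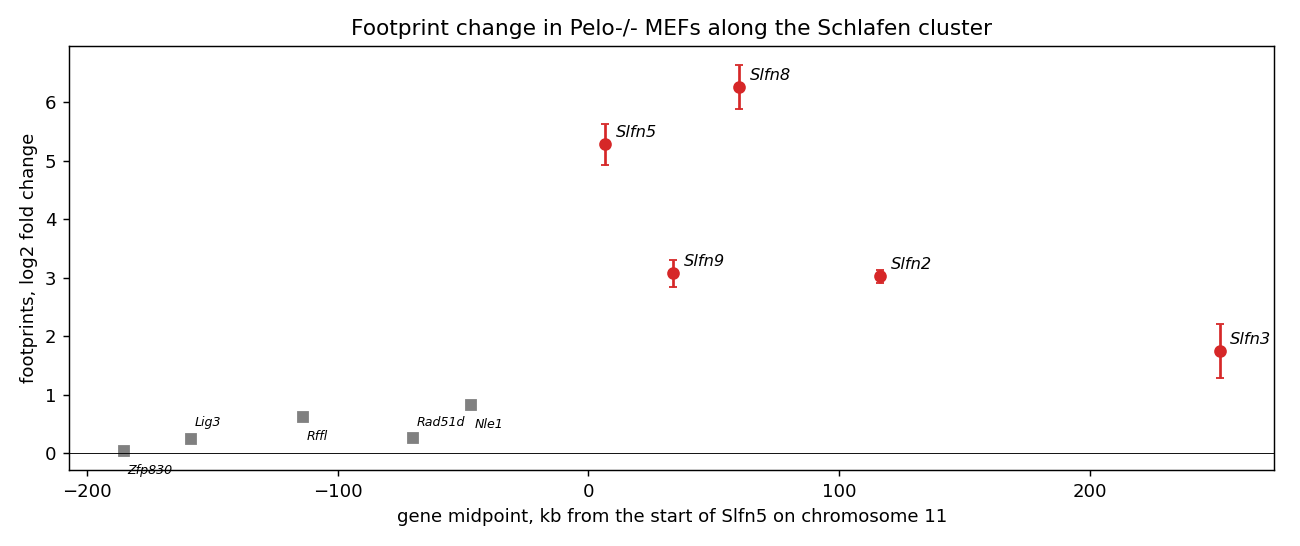
Log2 fold change of footprints in Pelo-/- MEFs against the position of each gene's midpoint, in kb from the start of Slfn5, for Schlafen genes (red, with standard error) and the tested flanking genes on the side of Slfn5 (grey). The 5 Schlafen genes lie between 1.75 and 6.26 and these flanking genes between 0.04 and 0.83.

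Genes with the most similar footprint profile were sought among 9783 genes over the 18 MEF footprint libraries, by Pearson's r of log2(CPM + 0.5). Among the 3 closest to Slfn5 were Irgm2 (r = 0.994) and Cmpk2 (0.994), the closest to Slfn8 was Sp100 (0.991) and the closest to Slfn9 was Parp9 (0.994). Slfn2 was closest to Tapbp (0.978), H2-Q4 (0.977) and H2-D1 (0.975), genes of antigen presentation on MHC class I. Slfn3 was closest to Crybg1 (0.864). Over the 11 RNA libraries and 9911 genes the closest were Ifit3 for Slfn2 (0.951), Mitd1 for Slfn9 (0.977), Mpc2 for Slfn5 (0.879) and Rgs4 for Slfn3 (0.905), and Oas1a (0.950) and Bst2 (0.943) were among the 3 closest to Slfn8. Slfn2 and Slfn8 had interferon-stimulated genes nearest in RNA, and Slfn5 and Slfn9 did not. These correlations are descriptions. The libraries share genotypes, and the control footprints share their material across pools.

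The third comparison asks how the members stand in Hbs1l-/- embryos and in Hbs1l cKO cerebella, where part of the Hbs1l footprints remained. In embryos only Slfn9 passed the filter, with 114, 72 and 24 footprints or 16.2, 18.2 and 8.56 CPM in Hbs1l-/- and 16.6, 16.2 and 6.35 CPM in wild type. The groups overlapped and the log2 fold change was 0.15 (standard error 0.37). It was not called, where 0.92% of all genes were called higher and 2121 of 11416 had an unadjusted p below 0.05. Slfn5 had 15 footprints over the 3 Hbs1l-/- libraries and 13 over the 3 wild types, and the other members had at most 6 in either group. These members did not pass the filter and were not tested, and at such counts a small difference could not be told from counting error.

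In cerebella Slfn9 had 8.52, 4.19 and 4.87 CPM in Hbs1l cKO and 1.49, 2.17 and 1.504 CPM in controls. Every cKO library lay above every control, with a log2 fold change of 1.76 (standard error 0.33), and with Slfn8 and Slfn9 summed of 1.59. Slfn5, the main member there, had 10.9, 8.92 and 9.96 CPM against 17.9, 16.3 and 9.16 CPM, so the groups overlapped (log2 fold change -0.54, standard error 0.25). Slfn2 (-0.13, standard error 0.32), Slfn3 (-0.33, 0.37) and Slfn8 (0.09, 0.62) differed by less than their errors. None of the 5 was called by edgeR, where 0.0554% of all genes were called higher and 1936 of 14430 had an unadjusted p below 0.05, and DESeq2 called 1.

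**Figure D5:**
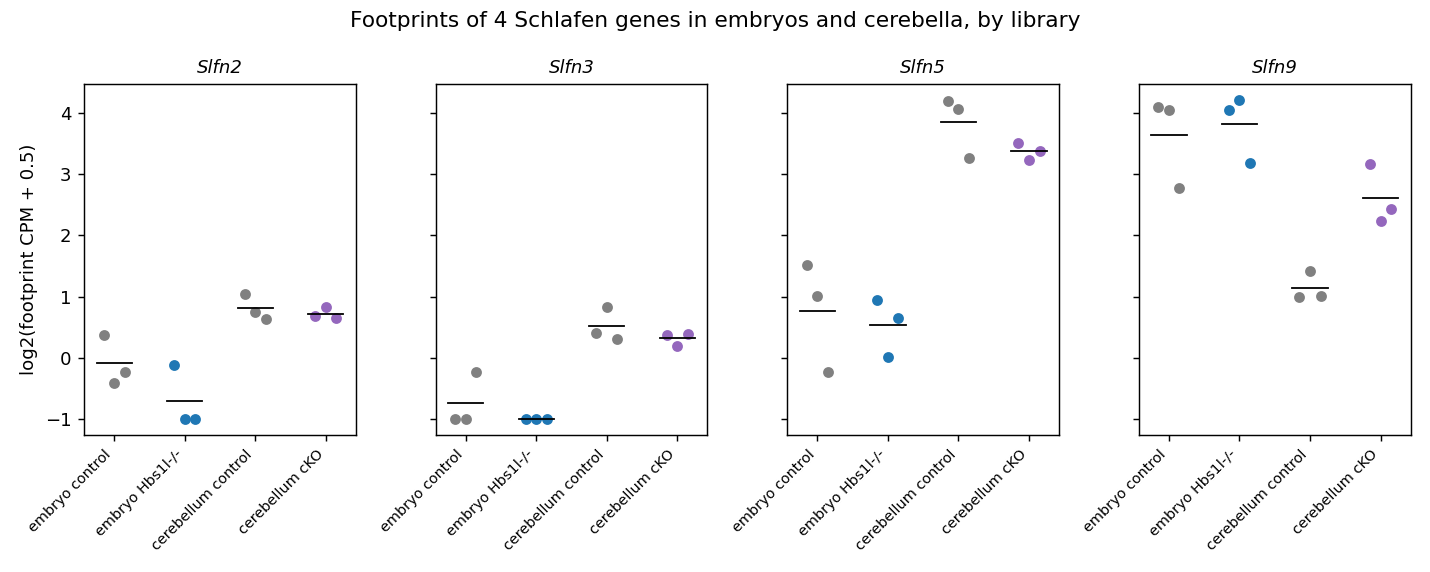
Footprints of 4 Schlafen genes on the log2(CPM + 0.5) scale in embryo and cerebellum libraries, 1 point per library and a line at the mean. Slfn9 in cerebella is the pair of groups without overlap, at 4.19 to 8.52 CPM in Hbs1l cKO and 1.49 to 2.17 CPM in controls. It was not called by edgeR, and the share of all genes without overlap was not counted.

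The interferon lists had no called member in either tissue, with 0 of 5 other interferon-stimulated genes tested in embryos (median log2 fold change 0.40 against 0.01 over all genes) and 0 of 29 in cerebella (-0.13 against 0.00). Of the receptors, kinases and factors 0 of 13 and 0 of 16 were called, and of the feedback inhibitors 0 of 3 and 0 of 6 (embryo medians 0.11 and 0.58 for these lists). Of the tRNA list 0 of 10 and 0 of 11 were called. Macrophage markers summed to 296 to 331 CPM in Hbs1l cKO and 240 to 293 CPM in control cerebella. Over all genes edgeR called 214 in embryos and 9 in cerebella, against 432 and 484 in DESeq2, and these counts rest on single libraries. Leaving out 1 library gave 28 (control replicate 2) to 2309 calls (Hbs1l-/- replicate 1) in embryos, and 0 to 560 (control replicate 3) in cerebella.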

How the data were processed

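Ribosome footprints were sequenced from E8.5 embryos, P14 cerebella and MEFs, and RNA from MEFs. Per the labels and the study's methods, the authors removed ribosomal RNA reads with Bowtie2 2.2.3, mapped footprints with HISAT2 2.1.0 to mm10 (Gencode M24) and deposited counts over coding sequences made with featureCounts. RNA was quantified by the authors with kallisto 0.42.4, and the deposited values are estimated counts and TPM per transcript, summed here to genes and, for estimated counts, rounded to whole numbers. Counts, not TPM, were tested.

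Each comparison was fitted on its whole table with edgeR 4.0.16 (filterByExpr, TMM factors, glmQLFit and glmQLFTest, prior count 0.125, R 4.3.3), with p-values adjusted by Benjamini-Hochberg over all tested genes and a threshold of 0.05. Standard errors are the log2 fold change divided by the square root of F. Translation efficiency is the interaction of assay and genotype. As in the study's own tests, histone genes did not enter the footprint and TE fits. CPM are TMM-scaled over all libraries of a tissue or assay. The script was tested on simulated data.

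The members and gene lists were chosen with earlier results of these data known. Context genes are named as up to 3 largest increases and 2 largest decreases among called genes of a list with a mean of at least 5 CPM, of which the text gives a part. Shared sequence was counted in windows of 28 bases of the GENCODE M21 transcripts, since the genome build matches mm10 but the annotation is an older release. Promoters were read from RefSeq (GRCm38.p6), which had a window for all 6 members. No molecular identifiers are named in the sources used here, so counts may not be independent molecules. MEF replicates are separate embryos. The alternatives were DESeq2 1.42.0, RLE factors, no filter, a threshold of 0.01, a prior count of 2, a replicate block, summed near copies, controls summed over the 3 pools, protein-coding transcripts only, and leaving out each library. Some genes of the lists and of the surroundings of the cluster are not reported by name here, and flanking genes on the side of Slfn3 are not shown in footprints.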

Additional observations from a re-analysis of the deposited data

Results flagged for a closer look

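Of the members, 3 had Pelo-/- libraries that all lay above the controls in footprints and all below them in RNA. This difference in direction between assays is a description and was not tested, since these values chose the members. The share of all genes with the same pattern was not counted, so nothing is read from the number of members. At an adjusted p of at most 0.05, 22.9% of all tested genes were called higher in Pelo-/- footprints and 16.6% lower in Pelo-/- RNA. The fitted differences between assays on the log2 scale were 6.22 (standard error 0.71) for Slfn5, 4.51 (0.40) for Slfn9 and 2.75 (0.67) for Slfn3. The ratio of mean CPM, Pelo-/- to control, was 38.8 in footprints and 0.47 in RNA for Slfn5, 8.39 and 0.36 for Slfn9, and 3.36 and 0.47 for Slfn3. The RNA side has 2 Pelo-/- libraries, and for Slfn3 it has 9 estimated counts over them. For Slfn5 the size of the RNA ratio rests on control replicate 1, at 6.54 CPM against 2.52 and 2.16 CPM in the other controls. The fitted difference of Slfn5 was smaller without that library, as given above.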

How the results depend on the processing

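Depth limits Slfn1, Slfn3 and Slfn8 in controls and all members but Slfn9 in embryos. Of 727 recomputed log2 fold changes of members (46 values under their alternatives), 676 moved by less than the replicate SD, 51 moved by more and none called in the report changed sign. The number of members called moved as follows. In cerebella it was 0, and 1 with DESeq2. In Pelo-/- RNA it was 1, and 2 without the filter and with near copies summed, where the sum stands for both Slfn8 and Slfn9. In Upf2-labelled RNA it was 1, 2 without the filter and 0 at an adjusted p of 0.01. For TE in Hbs1l-/- MEFs it was 0, and 1 without the filter. Leaving out 1 library gave 0 to 1 in cerebella (1 without control replicate 3), 4 to 6 in Pelo-/- footprints, 2 to 3 in Hbs1l-/- RNA, 0 to 1 in Pelo-/- RNA (0 without Pelo-/- replicate 2), 1 to 2 in Upf2-labelled RNA (2 without Upf2-/- replicate 1), 0 to 1 for Hbs1l-/- TE (1 without RNA control replicate 1), 2 to 3 for Upf2-labelled TE, and the same count throughout for embryos (0), Hbs1l-/- footprints (4), Upf2-labelled footprints (4) and Pelo-/- TE (5). The cause was not tested. The replicate block left every count of members as it was (0, 0, 4, 5, 4, 3, 1, 1, 0, 5 and 2). In no comparison did every same-numbered pair correlate above 0.1, which cannot show that the samples are unpaired. In embryos same-numbered pairs correlated at 0.012 to 0.035 and other pairs at -0.027 to 0.014. Pairing of footprint with RNA libraries was not checked. Over all genes the replicate block moved the calls from 214 to 564 in embryos, from 9 to 0 in cerebella, from 4727 to 2955 in Pelo-/- RNA and from 2 to 23 for Hbs1l-/- TE. DESeq2 moved them from 214 to 432 in embryos, from 9 to 484 in cerebella and from 2 to 321 for Hbs1l-/- TE. Without the filter they were 703, 16 and 22 in these 3. For Hbs1l-/- TE they were also 11 with controls summed over the 3 pools and 0 with protein-coding transcripts only. At an adjusted p of 0.01 the calls were 2506, 3644 and 3496 in Hbs1l-/-, Pelo-/- and Upf2-labelled footprints (from 4083, 5502 and 5279), 1254, 1943 and 1373 in RNA (from 3542, 4727 and 3194), 0, 3595 and 801 for TE (from 2, 5550 and 2392), and 43 and 0 in embryos and cerebella. Leaving out 1 library moved the calls over all genes by more than 1.5 times for every library of embryos and cerebella (28 to 2309 and 0 to 560). It did so in Hbs1l-/- RNA without Hbs1l-/- or control replicate 2 (2185 and 1817), in Pelo-/- RNA without either Pelo-/- library (1743 and 1506), in Upf2-labelled RNA without Upf2-/- replicate 2 or control replicate 2 or 3 (1995, 1800 and 1858), for Upf2-labelled TE without footprint Upf2-/- replicate 1 or 2, footprint control replicate 2 or RNA control replicate 3 (1537, 1501, 1463 and 1375), and for Hbs1l-/- TE, where the calls were 0 to 4, and 39 without RNA control replicate 1.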
